A study of Mus musculus with 4 samples.

Results

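Among 510 dense clusters of MILI-bound small RNAs in mouse testis, the 3 described here have strands that point at each other by their medians. In each, the median plus-strand 5′ end lies to the left of the median minus-strand one. On chromosome 9 only the medians are so ordered, and 908 of the 1697 sequences in its rightmost 20 kb are on the plus strand. Members are all listed sequences whose 5′ end lies in chr6:83280001-83320000, chr9:119340001-119400000 or chr14:65420001-65440000 (mm9), 14577 of 4906138 sequences (0.297%) at 7772 distinct 5′ ends. The list was made from MILI (Piwil2) immunoprecipitates of C57BL/6 testis taken 14 days post partum, and MILI is a PIWI protein of male germ cells. There were 2 libraries from Tdrd9-/- mice, which lack the helicase TDRD9, and 2 from heterozygous Tdrd9+/- mice. The design sets the Tdrd9-/- libraries against the Tdrd9+/- ones. The table gives each sequence once with its position and names neither a library nor a read count. The genotypes therefore could not be compared here, there is no error between replicates to give, and the depth of a library is unknown. Each value is a count or share of distinct sequences over the 4 libraries together, and intervals are exact Clopper-Pearson 95% intervals that cover counting error only. In such a count, more cells of a type, more precursor RNA per cell and more loading into MILI cannot be told apart. Sequences of an arm overlap and share precursors, so they are not replicates.

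The clusters were chosen by how many sequences their 20-kb windows hold, with 1000 as the limit, and by the order of their strands. The windows held 1329 and 2432 sequences on chromosome 6, 3070, 2273 and 1697 on chromosome 9, and 3776 on chromosome 14. The windows next to them on the left and right held 130 and 166 on chromosome 6, 475 and 309 on chromosome 9, and 16 and 299 on chromosome 14.

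PIWI proteins carry piRNAs, small RNAs that guide the silencing of transposons in the germline. Primary piRNAs are cut from long single-stranded precursors and usually begin with uracil. Precursors include dedicated intergenic transcripts and, before and at the start of meiosis, the 3′ untranslated regions (UTRs) of many messenger RNAs. When both strands of a locus are used, slicing of one RNA guided by a piRNA from the other leaves 5′ ends that overlap by 10 nt, the ping-pong signature. Marker genes were counted too: 5 of 5 genes of germ cells had 10 or more sense sequences (149 to 1196 each), against 2 of 6 markers of somatic testis cells (0 to 27 each). These counts cannot check the labelled tissue, because MILI is itself a protein of germ cells. They are also not scaled to the length of the transcripts.

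The sequences of 1 strand of a cluster are called an arm here. For 5 of the 6 arms the sequence shown is the longest, up to 30 nt, at the 5′ end that holds the most distinct sequences. These are shown because they let the gene or stretch behind each arm, and its first base, be seen directly. They are written 5′ to 3′ as the deposited table has them, with T for U, and the capitals mark the first base and base 10.
Chromosome 6 plus arm (Mob1a 3′ UTR, chr6:83291950-83291979, plus strand): TgtgcaagtGtatgaccgtcatctgcagac
Chromosome 6 minus arm (Tet3 3′ UTR, chr6:83315085-83315114, minus strand): TgcaactcaAgaacctgacggcacgagcaa
Chromosome 9 plus arm (past the annotated end of Acvr2b, chr9:119347802-119347831, plus strand): TgagctttaCtgtcaggattatgtgcaccc
Chromosome 14 plus arm (Kif13b 3′ UTR, chr14:65426143-65426171, plus strand): TgagacgtgCatggcctttgagtcccaga
Chromosome 14 minus arm (between exons of Hmbox1, chr14:65436702-65436731, minus strand): TgtgattgaGaatagcagagcccatcctcg
The fullest end held 10 sequences, of 21 to 31 nt, in the chromosome 14 minus arm, and 5, of 25 to 29 nt, in the chromosome 14 plus arm. The other ends shown had 8 or 9. The plus arms of chromosomes 6 and 9 had 2 ends tied for the most sequences, and the chromosome 14 plus arm had 3, of which the leftmost is shown. Every one of these tied ends began with U. An A at position 10, which ping-pong partners of a 5′ U piRNA carry, was present in the Tet3 sequence and in none of the others shown.

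On chromosomes 6 and 14 the clusters lie where genes on opposite strands run towards each other. The 8 genes described are Mob1a, Bola3 and Tet3 on chromosome 6, Acvr2b, Exog and the lincRNA 4930516B21Rik on chromosome 9, and Kif13b and Hmbox1 on chromosome 14. Genes were found by exact match of whole sequences to the transcripts of GENCODE M21, and the mm9 positions of their exons were then read from the positions of the matching sequences. The median 5′ end of the minus arm lay 23306 nt to the right of that of the plus arm on chromosome 6, 32910 nt on chromosome 9 and 9905 nt on chromosome 14. The clusters differed in how much of them GENCODE M21 covers. Of the chromosome 6 sequences 98.1% were sense to a transcript, against 35.0% on chromosome 9 and 21.7% on chromosome 14.

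**Figure D1:**
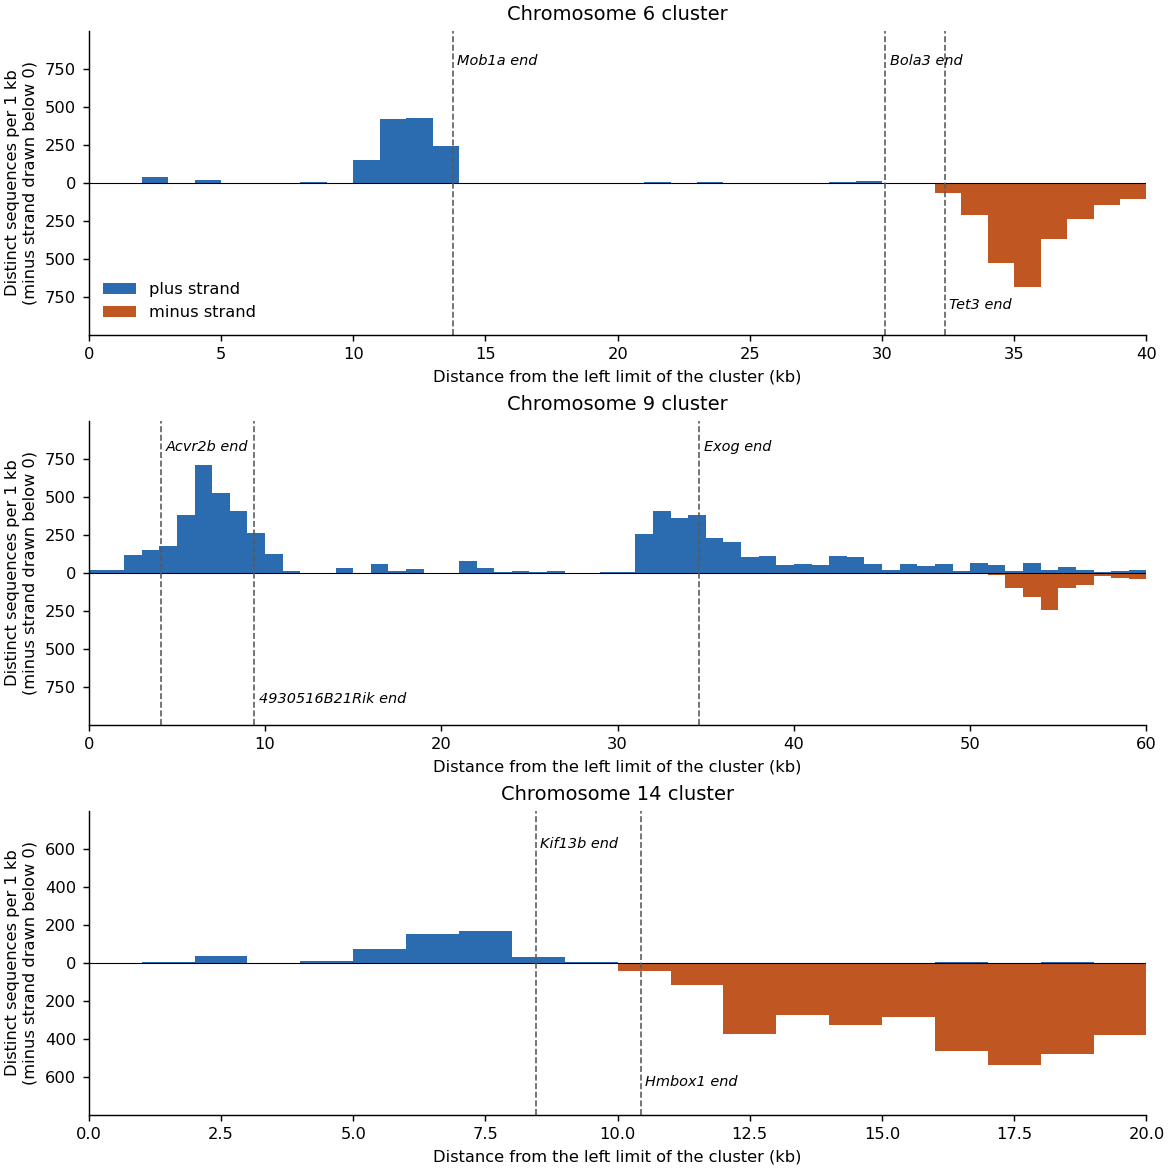
Distinct sequences per 1 kb along each cluster, with plus-strand sequences drawn upward, minus-strand sequences downward, the x axis in kb from the left limit and dashed lines at annotated 3′ ends of the genes described. On chromosome 6 few sequences lie past the ends of Mob1a and Tet3, whereas plus-strand sequences on chromosome 9 run past the ends of Acvr2b and Exog.

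The chromosome 6 cluster was made of the 3′ UTRs of Mob1a and Tet3. Mob1a encodes MOB kinase activator 1A, a cofactor of the LATS kinases in Hippo signalling, and Tet3 a dioxygenase that oxidises 5-methylcytosine. Of the 1353 plus-strand sequences, 90.02% (88.3–91.6%) lay in the 3′ UTR of Mob1a and 6.73% (5.45–8.19%) in its coding sequence. Of the 2408 minus-strand sequences, 87.2% (85.8–88.5%) lay in the 3′ UTR of Tet3 and 10.5% (9.35–11.8%) in its coding sequence. The fullest 1-kb bins held 430 plus-strand sequences (chr6:83292001-83293000) and 687 minus-strand sequences (chr6:83315001-83316000). Both lay well inside the last exons, of 3601 nt in Mob1a and 7453 nt in Tet3. There were 0 plus-strand sequences in the first 1 kb past the end of Mob1a and 0 in the 4 kb after it, with 8 farther on. On the minus strand, 1 sequence lay in the first 1 kb past the end of Tet3 and 23 in the next 4 kb. Over the whole cluster 55 lay past it (2.28% of the arm), up to 27620 nt away.

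Between them lies Bola3, a gene for a mitochondrial iron-sulfur cluster assembly factor, which had few sequences although it sits in the same cluster and on the strand of Mob1a. It had 27 sense and 12 antisense sequences. Its 3′ UTR of 1924 nt had 6.24 distinct 5′ ends per kb, against 175 per kb in the 3′ UTR of Mob1a and 179 per kb in that of Tet3. The coding sequence was sparser than the 3′ UTR in Mob1a, with 93.7 ends per kb, and in Tet3, with 64.3. In Bola3 it had 24.02 per kb (10 sequences). Most of what the whole list holds of these genes fell inside the limits: 1310 of 1354 sense sequences of Mob1a and 2353 of 2742 of Tet3. The arm of Tet3 is cut by the right limit of the cluster, and the 166 sequences of the next window were all on the minus strand.

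On chromosome 14, the plus arm was the 3′ UTR of Kif13b and the minus arm lay for the most part between annotated exons of Hmbox1. Kif13b encodes a kinesin motor, and Hmbox1 a homeobox protein that binds telomeric DNA. Of the 494 plus-strand sequences, 83.2% (79.6–86.4%) lay in the 3′ UTR of Kif13b and 11.3% (8.68–14.5%) in its coding sequence. The 3′ UTR had 77.1 ends per kb and the coding sequence 25.1. The first 1 kb past the annotated end had 2 sequences. The minus arm had 3282 sequences, of which 8.01% (7.11–8.995%) lay in the annotated 3′ UTR of Hmbox1 (transcript Hmbox1-201) and 1.31% (0.9498–1.76%) in its coding sequence. A further 89.3% (88.2–90.3%), or 2931 sequences, lay within the limits of the gene and matched no spliced transcript.

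These unmatched Hmbox1 sequences did not spread over the gene. They lay at chr14:65432261-65439977, in 1 longer stretch of minus-strand sequences. This stretch begins outside the limits of the cluster, in the alternative last exon of the shorter transcript Hmbox1-202. It runs on to the last exon of Hmbox1-201. The intron before that alternative exon had 2.63 ends per kb (5 sequences), the alternative last exon 39.2, and the next 1054 nt, outside the limits of the cluster, 92.0. From there to exon 10 of Hmbox1-201 (chr14:65435974-65440000) the density was 222 ends per kb with 1864 sequences. Exon 10 itself had 192 per kb, the intron between exons 10 and 11 had 169 with 1103 sequences, and the last exon had 84.6. A noncoding Hmbox1 transcript of 614 nt is also annotated here, with exons at chr14:65440891-65441133, 65435782-65435973 and 65433463-65433641. These exons reach into the 1054 nt and the intron between exons 10 and 11, but not into the part with 222 ends per kb. The exons at 65435782-65435973 and 65433463-65433641 matched 55 and 30 sequences. Sequences that also match Hmbox1-201 were placed in Hmbox1-201, which left 43 minus-arm sequences (1.31%) placed in a noncoding transcript of Hmbox1. Past the annotated end of Hmbox1 there were 0 minus-strand sequences in the first 1 kb and 0 in the next 4 kb. Exon 10 thus had a density between those of the stretches on its 2 sides. Over the 7 anchored introns of Hmbox1-202, 72329 nt in all with the one before its last exon included, the density was 0.138 ends per kb. Whether the stretch belongs to an unspliced Hmbox1 RNA, to a longer last exon of Hmbox1-202 or to another transcript was not tested.

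**Figure D2:**
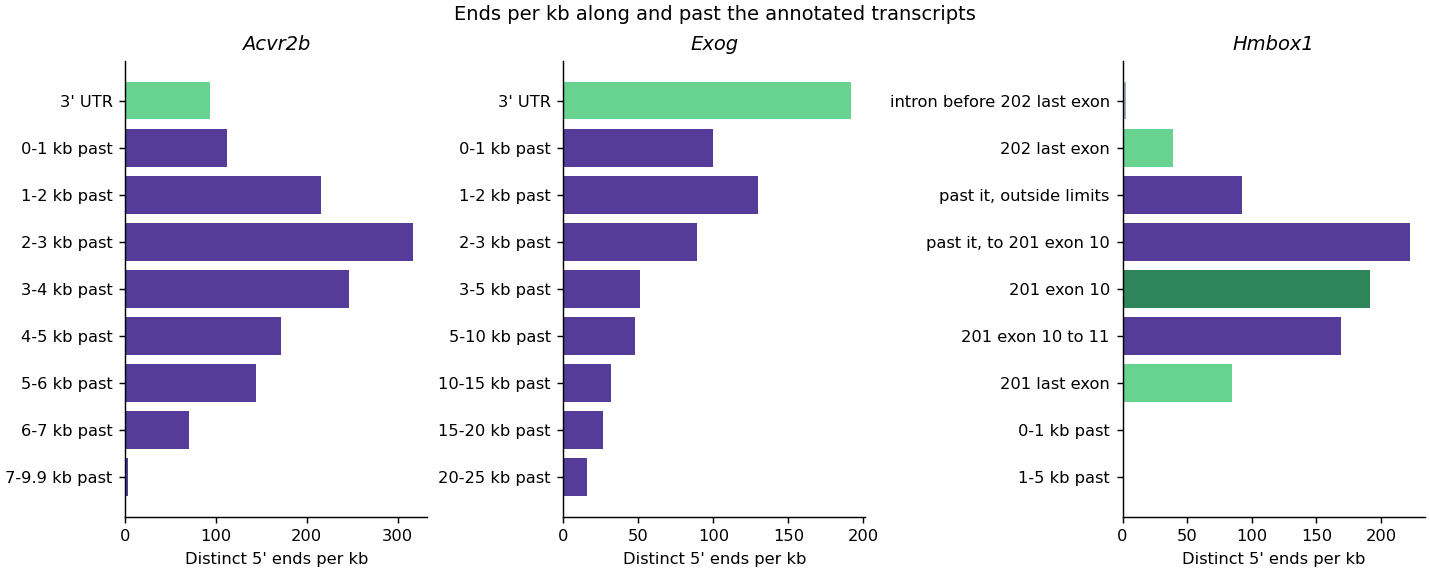
Distinct 5′ ends per kb in annotated 3′ UTRs or last exons (light green), a coding exon (dark green), an intron (grey) and stretches past or between them (purple) for Acvr2b, Exog and Hmbox1, in order along each gene, with 201 and 202 standing for the transcripts Hmbox1-201 and Hmbox1-202. Density was 317 per kb in the third kb past the annotated end of Acvr2b and 222 per kb past the last exon of Hmbox1-202, and there were 0 ends in the 5 kb past the last exon of Hmbox1-201.

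On chromosome 9 the plus strand supplied 88.4% of the 7040 sequences, in a pair of blocks, and most of a smaller minus arm lay at the right end. The left block follows Acvr2b, the gene for activin receptor type IIB. The right block follows Exog, which encodes a mitochondrial nuclease. Only 3.95% of the 6224 plus-strand sequences lay in the annotated 3′ UTR of Acvr2b, against 41.7% (40.4–42.9%), or 2593 sequences, past its annotated end. The density was 93.9 ends per kb in the 3′ UTR of 1534 nt. It was 112, 216, 317, 246, 172, 144 and 70.0 per kb in the 7 successive 1-kb slices past the end, and 2.76 per kb in the following 2.9 kb. RefSeq (GRCm38.p6) was used to see how far the end depends on the catalogue: of 7 of these genes found in both catalogues, Acvr2b was the 1 whose RefSeq gene ends over 1000 nt beyond the GENCODE M21 end, by 7153 nt with both on GRCm38. The 7 dense 1-kb slices hold 2585 of the 2593 sequences and span about that length. The block past Acvr2b is therefore past the gene's end in GENCODE M21, whereas a gene as long as the RefSeq one would take in nearly all of it. The sense share of the chromosome 9 cluster rests on GENCODE M21 in the same way.

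Exog had 1515 sense sequences, all of the list's sequences of that gene. Its coding sequence had 196 ends per kb and its 3′ UTR 192, so the 3′ UTR was not the denser part, as it was in the transcript that stands for every other coding gene described here except Bola3. Acvr2b had 68.2 per kb in coding sequence, and Hmbox1-201 had 62.6 in coding sequence and 83.2 in the 3′ UTR. In the shorter Hmbox1-202 it was 46.0 in coding sequence and 37.97 in the 3′ UTR. The last exon of Exog, of 3142 nt, held 1313 matched sequences. The intron before it, 10033 nt long, held 96 (7.28 ends per kb). Plus-strand sequences then ran on past the annotated end, with 1678 sequences (26.96% of the arm, 25.9–28.1%) as far as the limit of the cluster. Their density was 100, 130 and 89.0 ends per kb in the first 3 successive kb, 51.0 from 3 to 5 kb, 47.6 from 5 to 10 kb, 32.0 from 10 to 15 kb, 26.4 from 15 to 20 kb and 16 from 20 to 25 kb. The density was thus lower in each successive slice after 2 kb, and every slice up to the limit held sequences. The next 20-kb window still held 246 plus-strand sequences.

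The minus arm of chromosome 9 had 816 sequences at 509 ends, of which 789 lay to the right of the annotated end of Exog and 24 to the left of its first exon. Of the 816 sequences, 77.5% were sense to a transcript. The lincRNA 4930516B21Rik, which lies opposite the left block, had 5 sense and 158 antisense sequences. Nearly all sequences that match it thus came from the other strand.

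**Figure D3:**
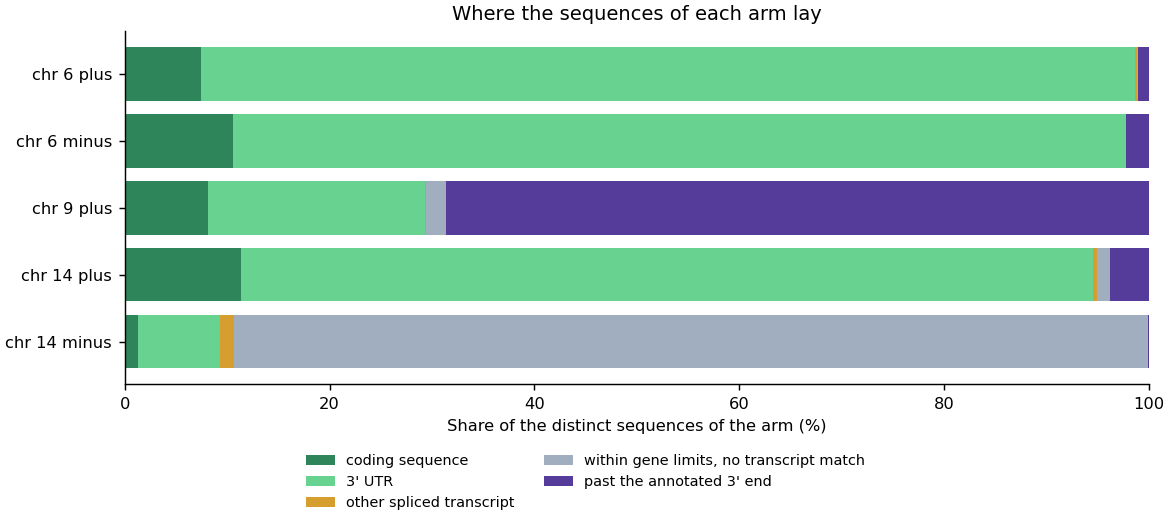
Share of the distinct sequences of each arm, in percent on the x axis, that lay in coding sequence, 3′ UTR, other spliced transcripts, within gene limits without a transcript match, or past the annotated 3′ end, with 1 bar for each of 5 arms. Both chromosome 6 arms and the chromosome 14 plus arm are mostly 3′ UTR, the chromosome 9 plus arm mostly lies past ends as GENCODE M21 has them (41.7% past Acvr2b, whose RefSeq end lies 7153 nt farther on, and 26.96% past Exog), and 89.3% of the chromosome 14 minus arm lies between exons of Hmbox1.

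Introns on the whole had fewer ends per kb than last exons. The anchored introns of the transcript that stands for each gene had 0.399 ends per kb in Bola3, 0.614 in Kif13b, 0.674 in Mob1a, 5.18 in Tet3, 5.20 in Exog and 12.4 in Acvr2b. The last exons of the same transcripts had 7.04, 74.2, 175, 157, 203 and 93.1 per kb. Each last exon was thus denser than the introns of its gene. In Hmbox1-201, whose introns hold the stretch described above, the 8 anchored introns had 20.2 per kb together and the last exon 84.6. Taken singly, introns 9 and 10 had 125 and 169 per kb and so were denser than that last exon.

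A 5′ U was carried by most sequences in all 6 arms, from 65.8% to 77.1%. The share was 72.1% (69.7–74.5%) and 65.8% (63.9–67.7%) in the plus and minus arms of chromosome 6. On chromosome 9 it was 67.9% (66.7–69.0%) and 71.3% (68.1–74.4%). On chromosome 14 it was 77.1% (73.2–80.8%) and 67.1% (65.5–68.7%). At positions 11 to 20 of the same sequences U made up 20.7% to 23.6%, and the first base stood above the sequences' own content in each arm. All but 1 of the arms were below the 75.4% of the whole list, and the exception was the chromosome 14 plus arm. Among 655 arms with 100 or more sequences in the other 507 dense clusters, whose median was 70.1%, the share of arms below ran from 22.7% for the chromosome 6 minus arm to 88.2% for the chromosome 14 plus arm. The share was lower in coding sequence than in the 3′ UTR in 6 of 7 coding genes, and in 2 of the 6 the intervals did not overlap. These were Tet3, with 47.2% (41.0–53.6%) in coding sequence against 67.7% (65.7–69.7%) in the 3′ UTR, and Exog, with 52.7% (47.9–57.4%) against 66.7% (63.8–69.5%). In Kif13b the shares were 64.3% (50.4–76.6%) and 79.3% (75.1–83.1%), and the intervals of Acvr2b, Bola3 and Hmbox1 overlapped too. Mob1a went the other way, with 80.2% (70.6–87.8%) in coding sequence and 71.4% (68.8–74.0%) in the 3′ UTR, and its intervals overlap. In the stretches without a transcript match the share was 67.1% (65.2–68.9%) past Acvr2b, 72.5% (70.3–74.6%) past Exog and 65.9% (64.1–67.6%) between the exons of Hmbox1.

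Counted against the bases available, uracils were used as 5′ ends several times as often as other bases. Over all positions that any sequence of an arm covers, 42.5% of uracils in the chromosome 14 minus arm were the 5′ end of at least 1 sequence, against 13.8% of adenines, 12.4% of cytosines and 9.51% of guanines. In the chromosome 14 plus arm, which had fewer sequences per kb, these shares were 27.3%, 5.35%, 4.97% and 2.21%. The ratio of uracil to the mean of the other bases was 4.26 and 4.03 in the plus and minus arms of chromosome 6, 4.49 and 5.67 on chromosome 9, and 6.52 and 3.57 on chromosome 14. In the whole list it was 8.11, with 19.9% of covered uracils in use. The median of the 655 other dense arms was 4.77, with 12.1% of them below the chromosome 14 minus arm and 80.5% below the chromosome 14 plus arm. Guanine was the least used base in all 6 arms. The arms differ in how many sequences each covered base has, and the part of that in these ratios was not tested.

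**Figure D4:**
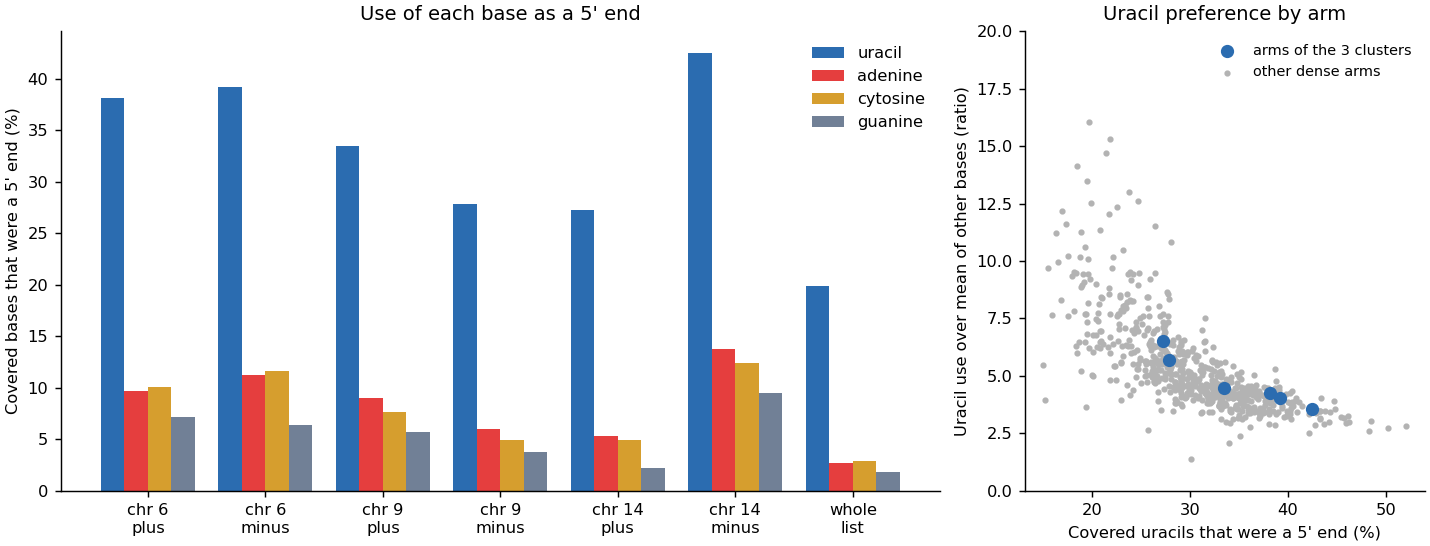
Left, the share of covered bases that were a 5′ end (percent) for uracil, adenine, cytosine and guanine in each of the 6 arms and in the whole list. Right, the uracil share on the x axis against its ratio to the mean of the other bases on the y axis for the 6 arms and 655 arms of other dense clusters, in which the 6 arms lie inside the cloud.

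A at position 10 was not raised above the sequences' own content in any arm as a whole. It was carried by 27.5%, 28.2%, 28.1%, 27.2%, 23.1% and 29.8% of the sequences in the plus and minus arms of chromosomes 6, 9 and 14 in that order. A made up 29.2%, 26.6%, 27.8%, 25.4%, 24.6% and 28.3% of positions 11 to 20 in the same arms, and each of these values lay within the 95% interval of the share at position 10. In the whole list the shares were 31.7% at position 10 and 30.7% at positions 11 to 20.

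Pairs of opposite 5′ ends with the 10-nt overlap of ping-pong were few, and most lay on chromosome 9. There, 24 such pairs stood against a mean of 15.5 pairs at each other overlap up to 20 nt (lowest 10, highest 21), which gives a ratio of 1.55. Chromosome 6 had 2 pairs (mean 1.11) and chromosome 14 had 2 (mean 2.21), too few to read a ratio from. Of the chromosome 9 pairs, 17 lay past the annotated end of Exog, where the arms overlap (other overlaps 7 to 19, mean 11.8, ratio 1.44). The count at 10 nt was therefore within the range of the other overlaps in that stretch. A further 6 lay left of the first exon of Exog (2 to 6, mean 3.42), where 24 minus-strand sequences are listed beside 2910 plus-strand ones. Of those 24 minus-strand sequences, at 21 ends, 41.7% had A at position 10, against 25.8% of the plus-strand ones. No interval was computed for so small a set, and the difference was not tested. In the chromosome 9 pairs, 19 of 24 plus ends and 18 of 24 minus ends began with U, 14 pairs had a U on both sides and 1 had none.

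The 3 pairs with the most sequences all lay in the stretch past Acvr2b and are shown because they let the 10-nt overlap be seen directly. Both partners of each pair begin with U and so carry A at position 10 by their complementarity. The capitals mark the 10 nt that pair with the partner, and T stands for U.
Pair 1, plus strand (chr9:119348487-119348514): TACAGAACTAcactggatggggcagccc
Pair 1, minus strand (chr9:119348468-119348496): TAGTTCTGTAgcagcaggctggagccagc
Pair 2, plus strand (chr9:119345792-119345820): TACATCCACAgggaagggcggatcccttt
Pair 2, minus strand (chr9:119345774-119345801): TGTGGATGTAtgagcagaaggcccacat
Pair 3, plus strand (chr9:119348312-119348339): TAACTGTCGAgttaatcaggaaccaatg
Pair 3, minus strand (chr9:119348294-119348321): TCGACAGTTAgagcagaaagcaagcagc
Their plus ends held 6, 4 and 4 distinct sequences and their minus ends 1, 2 and 1. They were chosen by their number of sequences, and 10-nt pairs with a U at both ends have A at both positions 10 by construction.

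**Figure D5:**
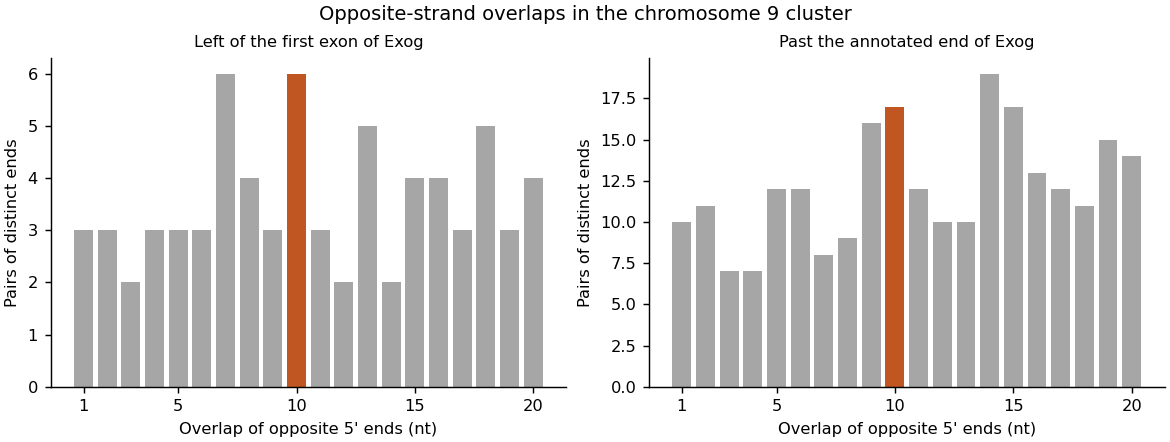
Number of pairs of distinct opposite-strand 5′ ends (y axis) by overlap in nt (x axis) in the chromosome 9 cluster, left of the first exon of Exog and past its annotated end, with the 10-nt bar in orange. The 10-nt bars stand at 6 and 17 pairs, inside the range of the other overlaps in both stretches.

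The arms of chromosomes 6 and 14 barely overlapped. On chromosome 6, 127 nt were covered on both strands, and 8 of 1353 plus-strand sequences (0.591%) overlapped a minus-strand one. On chromosome 14 it was 334 nt and 15 of 494 (3.04%). On chromosome 9, 1718 nt were covered on both strands. There, 341 of 6224 plus-strand sequences (5.48%) but 407 of 816 minus-strand ones (49.9%) touched an opposite sequence.

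Lengths were near those of the whole list, and a gel cut at about 28 to 30 nt had preceded the libraries. Mean lengths ran from 26.9 nt (SD 1.32 nt over sequences) in the chromosome 14 plus arm to 27.2 nt (SD 1.47 nt) in the chromosome 6 plus arm, against 27.1 nt (SD 1.31 nt) in the whole list. The most frequent length was 27 nt in 5 arms and 26 nt in the chromosome 9 minus arm. Sequences of 29 nt or longer began with U in 72.9% to 80.2% of cases, depending on the arm. Those of 26 to 28 nt did so in 63.2% to 76.7%, and the share was higher in the longer class in each arm. The intervals of both classes overlapped in the plus arms of chromosomes 6 and 14 and in the chromosome 9 minus arm. In sequences of 25 nt or shorter the share was 66.7% to 77.3%. It was above the 26 to 28 nt class in both chromosome 14 arms, the chromosome 6 minus arm and the chromosome 9 plus arm. Of these arms, only the chromosome 14 minus arm had intervals that did not overlap (67.9–77.1% against 63.0–66.9%), and there the share did not follow length. A 5′ end directly after a 3′ end, as stepwise cleavage leaves it, was not in excess: the ratio of distance 1 to the mean of distances 2 to 20 was 0.808 to 1.13 in the arms and 1.01 in the whole list. The base after the 3′ end was U in 28.7%, 26.3%, 28.9%, 21.7%, 27.3% and 27.1% of the sequences where it was covered. These values are for the plus and minus arms of chromosomes 6, 9 and 14 in that order. In the same arms U made up 28.5%, 25.3%, 25.5%, 23.2%, 24.9% and 27.2% of the covered bases. The share after the 3′ end was thus above this content in some arms and below it in others, which was not tested. A 3′ end shortened after cleavage would be missed by both measures.

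By size the clusters ranked 9 (chromosome 9), 31 (chromosome 14) and 33 (chromosome 6) of 510. The share on the minor strand was 36.0% on chromosome 6, 11.6% on chromosome 9 and 13.1% on chromosome 14. A convergent order was not rare. With 10% or more of the sequences on the minor strand, a limit set so that the 3 clusters meet it, 59 other clusters were convergent by their median positions, 55 were divergent and 393 fell short of the limit. The median share of sequences sense to a transcript was 73.9% in the other convergent clusters (quartiles 50.9% and 92.3%), 34.8% in the divergent ones (12.6% and 66.99%) and 90.8% in those of mainly 1 strand (42.6% and 97.6%). The chromosome 6 cluster, at 98.1%, lay above the upper quartile of the convergent group, and the clusters on chromosomes 9 and 14, at 35.0% and 21.7%, lay below its lower quartile. All these shares rest on GENCODE M21. Of the 7040 chromosome 9 sequences, 2593 lay past its end of Acvr2b and so count as unmatched. A gene as long as the RefSeq one, which ends 7153 nt farther on, would take in nearly all of them. These shares were not tested, since the clusters were chosen by their place and order.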

How the data were processed

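Small RNAs bound to MILI were sequenced from 4 testis libraries, 2 per genotype, after immunoprecipitation and gel elution, per the labels' protocols. Positions refer to mm9, a build named in the submitters' processing notes. Neither the aligner nor a filter on reads was given in the sources used here. The deposited table lists distinct sequences, each with a chromosome, a strand and a pair of 1-based positions, per the file headers, and holds no counts.

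The list was divided into windows of 20 kb. Adjacent windows that each held at least 1000 sequences formed 510 clusters from 581 windows. Sequences were searched by exact match in 141767 transcripts of GENCODE M21, which is built on GRCm38. Exon positions on mm9 came from the matching sequences alone (anchored exons), and no coordinate was converted. The coding transcript with the most members stood for its gene. Genes with a member are named, except that 1 is not reported here. The members, marker genes and lists were chosen with earlier results of these data known. No test was run, and the planned comparisons of genotypes could not be made, because the table names no library. The match and overlap steps were tested on simulated data. The software was Python 3.11.15 with matplotlib 3.10.9, scipy 1.17.1, pandas 2.3.3 and numpy 2.4.6.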

Additional observations from a re-analysis of the deposited data

How the results depend on the processing

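Of 93 recomputed values for 21 results, 82 stayed within the 95% interval of the value reported (for a distance, by no more than the summed half-widths of the intervals of both medians) and no cluster changed the order of its strands. Sequences of 24 to 31 nt only, recurring ends left out, trimmed limits, a narrower overlap background and other transcript rules moved none of the results they were applied to past their intervals. Some of these could hardly move a value. Trimmed limits kept 3760 of 3761 sequences on chromosome 6, 7040 of 7040 on chromosome 9 and 3772 of 3776 on chromosome 14. With recurring ends left out 3759, 7013 and 3749 remained. Limiting matches to sequences of exactly 1 gene left the sense shares the same. The 11 that moved did so when 5′ ends replaced sequences. The 5′ U share was then 63.0% and 58.1% in the plus and minus arms of chromosome 6, 60.7% and 63.5% on chromosome 9, and 69.3% and 57.2% on chromosome 14. A at position 10 in the chromosome 14 minus arm was 27.5%. The share sense to a transcript was 96.7%, 33.7% and 24.8% on chromosomes 6, 9 and 14. The medians of the chromosome 9 arms lay 22815 nt apart, against 32910 nt over sequences. With sequences in place of 5′ ends the 10-nt ratio was 1.5 on chromosome 6, 2.26 on chromosome 9 and 1.56 on chromosome 14, where it was 0.905 over ends and so crossed 1. Its interval is wide on chromosomes 6 and 14, which had 2 pairs each, and that it stayed inside says little. No paired analysis was possible because the table names no library, and for the same reason no replicate could be left out. Abundant and rare RNAs count alike in a list of distinct sequences, so levels are not measured.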
